A study of Arabidopsis thaliana with 72 samples.

Results

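The 41 genes described here had a daily rhythm in whole cotyledons, in isolated mesophyll and in isolated vasculature of Arabidopsis thaliana, under both day lengths studied, and were on average highest at dawn or in the morning. They were chosen from 16722 probe sets of the array that stand for 1 gene each. Levels are log2(intensity + 1), where the intensity is the brightness of a probe set on a linear scale. The arrays of the same Zeitgeber time on both days were averaged, which gave 6 time means in each group; Zeitgeber time (ZT) counts the hours after the lights come on. A gene was a member when its time means spanned a range of at least 1.5 in each of the 6 groups and when its profile averaged over the groups was highest at ZT0 or ZT4. Of 42 probe sets that met this rule, 1 was left out by the rule's own list of exclusions, and 41 remained, each with 1 probe set. All 41 passed the filter on low values that was set for the tests.

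Seedlings in every group were wild type of the accession Col-0. They were grown on Murashige and Skoog medium that contained 0.5% sucrose. Long days (LD) had 16 hours of light and 8 of dark, and short days (SD) had 8 hours of light and 16 of dark. Whole cotyledons, mesophyll and vasculature were taken every 4 hours on days 9 and 10, so that each of the 6 groups has 12 arrays, with 1 array for each time and day, 72 in all. Mesophyll and vasculature were freed with enzymes and sonication before RNA extraction, a step the labels do not name for whole cotyledons. Nothing in the labels says that the arrays of days 9 and 10 came from separately grown plants, so every p-value here measures the spread between these samples. In such bulk samples, fewer cells of a type and less RNA per cell cannot be told apart.

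Daily rhythms of plant transcripts come from the circadian clock, a set of transcription factors that repress one another in turn, and from responses to light, to darkness and to the sugar made by photosynthesis. Genes that are highest around dawn or in the morning fall in a part of the cycle known for preparing and running photosynthesis and, at the end of the night, for the use of stored carbon. Mesophyll cells carry out most photosynthesis of a leaf, and the vasculature loads and carries sugar.

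Of the 41 members, 6 have a gene name in RefSeq and 1 more has a family name among its synonyms. AKINBETA1 is a regulatory beta subunit of SnRK1, a kinase that becomes active when cells run short of carbon. LHB1B2, also called LHCB1.5, is a light-harvesting chlorophyll-binding protein of photosystem II. ACT11 is an actin, a protein of the cytoskeleton, and DJ1F belongs to the DJ-1 protein family. SIS is named Salt Induced Serine rich, RXW8 has a name only, and AT2G26690 (NPF6.2) belongs to the NRT1/PTR family of membrane transporters. The other 34 members have only a locus name in the tables used, and no role is given for them. ACT11 and LHB1B2 belong to families of near-identical genes, and signal from relatives on their probe sets was not tested.

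The ranges chose the members and are given as a description. Over the 246 profiles (41 genes in 6 groups) the range ran from 1.51 to 7.95 with a median of 2.91. Short day whole leaf had the largest median range, 3.92, and long day vasculature the smallest, 2.18. DJ1F and AT3G12150 lay just inside the threshold, with smallest ranges of 1.51 in short day mesophyll and 1.53 in short day vasculature. ALN (1.49 in short day whole leaf) and AT5G63190 (1.49 in long day whole leaf) lay just outside it. Without a condition on the peak time, 93 probe sets of 1 gene had the range in all 6 groups, of which 42 were highest on average at ZT8 and 9 at ZT12, ZT16 or ZT20. Of the members, 21 were highest on average at ZT0 and 20 at ZT4.

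Array medians lay between 3.29 and 3.77 on the intensity scale, and the number of arrays limits the precision. Long day whole leaf at ZT0 of day 10 stood apart. It had the highest median intensity of all arrays, 3.77, and the lowest mean intensity, 54.2 against 67.8 or more in the others. Its 4 measured mesophyll markers (of 7 listed) had a log2 sum of 9.63 against 11.1 to 12.0 in the other 11 arrays of its group. In long day vasculature this sum was 10.06 at ZT8 and 9.85 at ZT20 of day 9, against 8.96 and 8.98 at the same times of day 10. Where leaving out 1 of these 3 arrays ended the call of a named gene between day lengths or tissues, or moved it by over 1.5 times, the value without it is given too. At the time of the array left out, its group then has 1 array, and a difference at that time rests on it. The mesophyll and vasculature markers set these tissues apart as labelled. The mesophyll sum was 11.1 to 12.0 in mesophyll and 8.76 to 10.06 in vasculature. The sum of 5 vasculature markers (of 8 listed) was 7.17 to 9.44 and 11.3 to 12.5. FDH, the 1 measured epidermis marker of 3 listed, had means of 7.71 and 7.67 in vasculature in long and short days. Its means were 6.77 and 6.30 in mesophyll and 7.701 and 6.715 in whole leaf. The part of epidermal cells in the results was not tested. None of the measured markers was at 0. All 4 listed markers of wounding were measured, and their log2 sum was 3.3 to 4.96 in whole leaf, 6.08 to 8.88 in vasculature and 11.5 to 12.3 in mesophyll, so that comparisons between tissues also compare these levels; their part in the results was not tested.

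**Figure D1:**
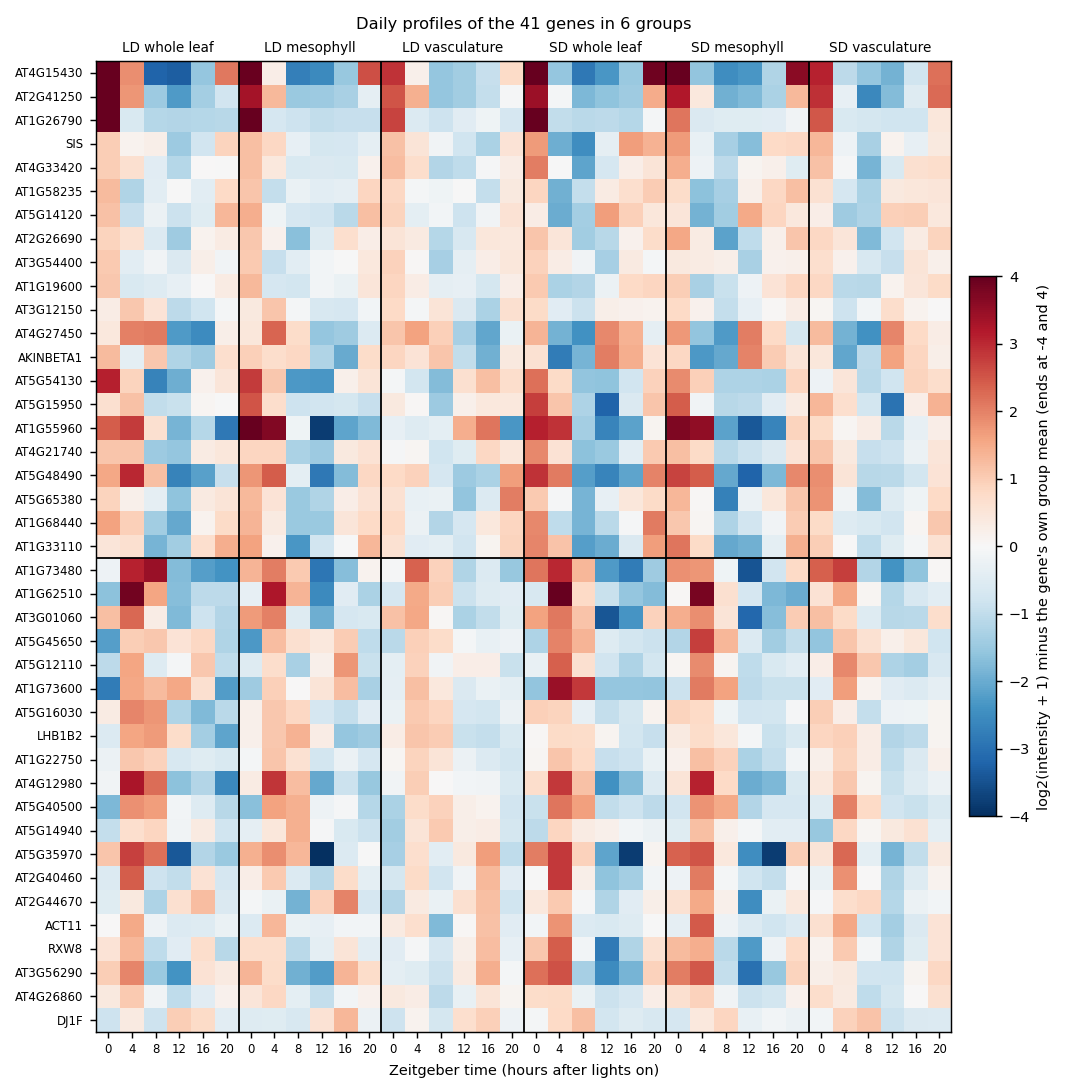
Each row is 1 of the 41 genes and each column a Zeitgeber time in 1 of 6 groups; colour is the time mean of log2(intensity + 1) minus the gene's own mean in that group, with the scale ending at -4 and 4. The upper block holds the 21 genes that are on average highest at ZT0 and the lower block the 20 at ZT4; long day vasculature, where 12 genes were highest at ZT16, shows the weakest contrast, with a median range of 2.18.

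The largest rhythms belonged to genes that swung by more than 2.9 in every group. AT4G15430 had the largest minimum range, 4.42, and was highest at ZT0 everywhere. Its levels at ZT0 on days 9 and 10 were 9.89 and 8.89 in long day whole leaf, 9.09 and 9.01 in long day mesophyll, and 7.65 and 6.38 in long day vasculature. In short days they were 9.32 and 9.07 in whole leaf, 8.49 and 8.46 in mesophyll, and 7.12 and 7.0 in vasculature. All 36 arrays at ZT8, ZT12 and ZT16 lay below all 12 arrays at ZT0. At ZT4 the day lengths parted: in whole leaf the gene stood at 7.0 and 7.34 in long days and at 3.14 and 3.5 in short days, with no overlap.

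AT2G41250 was also highest at ZT0 in each group, and its smallest range was 4.06. In long day whole leaf it was at 8.17 and 7.89 at ZT0 and at 1.68 on both days at ZT12. In short day vasculature it was at 8.32 and 8.37 at ZT0 and at 3.11 and 2.62 at ZT8. The night before dawn differed by day length: at ZT20 it had 7.61 and 7.77 in short day vasculature against 5.07 and 4.94 in long day vasculature. At that time the short day arrays lay above the long day arrays of the same tissue in all 3 tissues.

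AT1G73480 had a broader morning maximum and a smallest range of 3.86. In short day mesophyll it was at 9.68 and 9.54 at ZT0, at 9.57 and 9.55 at ZT4, and at 4.45 and 4.25 at ZT12. In long day whole leaf it was at only 4.5 and 4.88 at ZT0, stood at 8.35 and 7.56 at ZT4 and was highest at ZT8, with 8.03 and 8.66. Dawn levels in short day whole leaf, 7.89 and 7.41, were thus above those in long day whole leaf.

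AT4G27450 had ranges of 3.67 to 4.60, but its time of maximum followed the day length. In long day whole leaf it stood at 7.12 and 5.91 at ZT4 and at 6.72 and 6.45 at ZT8, and at 2.16 and 1.8 at ZT16. In short day whole leaf it stood at 2.02 and 2.70 at ZT4, at 1.82 and 1.87 at ZT8, and at 5.95 and 6.40 at ZT12. The times of high and low levels were exchanged between the day lengths, and the same held in mesophyll and vasculature. Its average profile was highest at ZT0, a time at which it was the maximum in none of the 6 groups.

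AT5G35970 reached 10.23 and 10.05 at ZT4 in long day whole leaf and 10.03 and 9.69 in short day whole leaf. At ZT16 the long day arrays had 6.18 and 6.25, and those of short days 2.8 and 3.67. Long day vasculature departed from this course, with 6.90 and 7.02 at ZT4 and its highest values, 8.02 and 7.90, at ZT16. AT5G48490, the last of these 6, was at 9.64 and 9.80 at ZT0 in short day whole leaf and at 4.08 and 4.35 at ZT12. In long day vasculature its maximum at ZT20 rested on 1 array, with 7.41 on day 9 and 2.62 on day 10. Without that array its maximum there fell at ZT4, and its values at ZT0 and ZT4, 4.07 to 4.35, differed little.

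**Figure D2:**
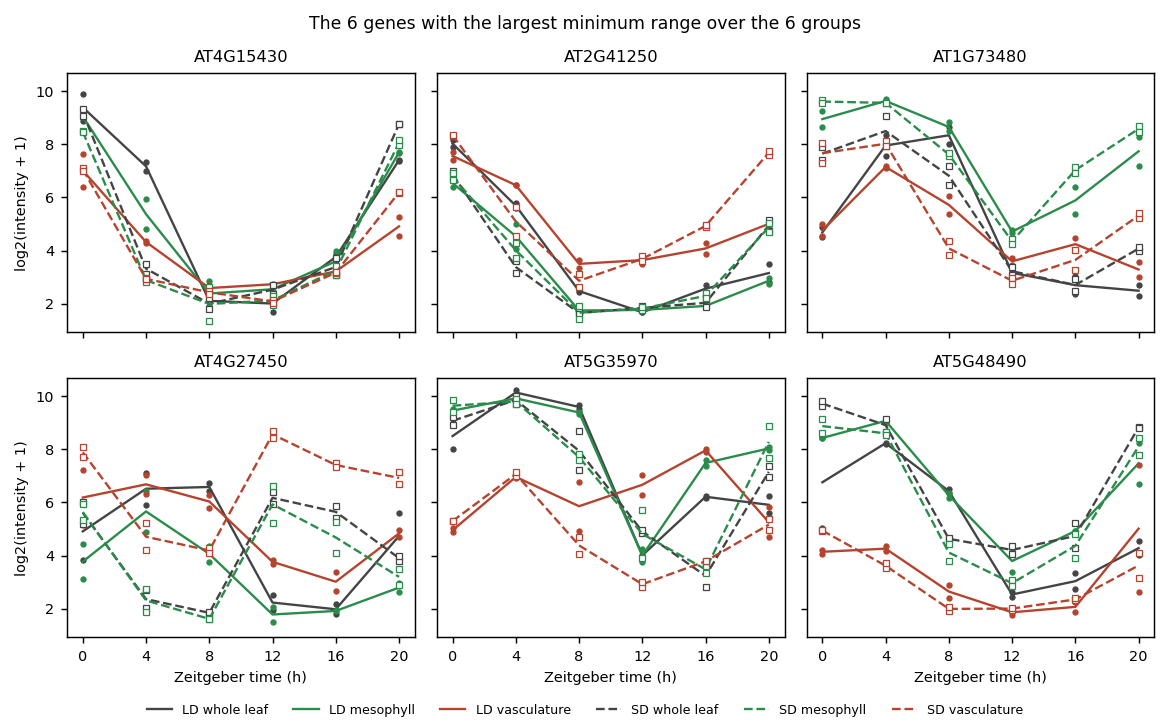
The y axis is log2(intensity + 1) and the x axis Zeitgeber time in hours for the 6 genes with the largest minimum range; points are single arrays of days 9 and 10 and lines join their means (solid for long days, dashed for short days). AT4G15430 and AT2G41250 are highest at ZT0 in all groups, while AT4G27450 has opposite courses in long and short days, for example 7.12 and 5.91 against 2.02 and 2.70 at ZT4 in whole leaf.

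Among the members with a name, AKINBETA1 ran opposite in the 2 day lengths from ZT4 to ZT16. In short days it was highest at ZT12 in all 3 tissues, with 9.33 and 9.54 in whole leaf, 8.84 and 9.09 in mesophyll, and 8.08 and 8.45 in vasculature. In long days the ZT12 values were 5.89 and 6.0, 5.32 and 5.28, and 4.72 and 4.89 in the same order, and the lowest values came at ZT16. At ZT20 in long days, 4 hours after lights off, the levels were 8.58 and 7.09 in whole leaf, 7.45 and 6.98 in mesophyll, and 6.22 and 6.14 in vasculature; ZT12 is 4 hours after lights off in short days.

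The means of LHB1B2 over the day were 9.96, 10.47 and 9.70 in long day whole leaf, mesophyll and vasculature and 10.75, 10.96 and 9.93 in short days. In long days its maximum came at ZT8 in whole leaf, with 11.59 and 11.75, and in mesophyll, with 11.88 and 11.81. In short days it was highest at ZT4 in all 3 tissues, with 11.49 and 11.54 in whole leaf. SIS had its highest time mean at ZT0 in each group, with 8.78 and 8.84 in long day mesophyll and 8.04 and 7.66 in short day whole leaf. Its troughs differed, at 4.11 and 4.54 at ZT12 in long day whole leaf and at 3.81 and 3.53 at ZT8 in short day whole leaf.

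ACT11 had a sharp maximum at ZT4 outside the vasculature. It stood at 3.95 and 4.44 at ZT4 in long day whole leaf, where no other time exceeded 3.01. In short day mesophyll it had 5.78 and 4.87 at ZT4 and at most 2.82 at other times. In long day vasculature it was highest at ZT16, with 6.60 and 6.10, beside 5.34 and 6.37 at ZT4. RXW8 was also high at ZT16 in all 3 long day tissues, with 8.81 and 8.38 in whole leaf, 8.18 and 7.90 in mesophyll and 7.26 and 7.16 in vasculature at ZT16. In short days RXW8 was lowest at ZT12, with 3.98 and 3.65 in whole leaf. AT2G26690 (NPF6.2) lay between 5.19 and 10.28, over all 72 arrays. It was highest at ZT0 in 5 groups and at ZT20 in short day vasculature. DJ1F was highest at ZT12 or ZT16 in long days and at ZT8 in short days, so that its place among genes of the morning came from the average over groups alone.

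The label of a dawn or morning peak was checked group by group. Only 12 members were highest at ZT0 or ZT4 in all 6 groups, and 27 were so in at least 5. Of these, 10 had their highest time mean at the same time in every group: AT4G15430, AT2G41250, AT1G26790, SIS, AT4G33420, AT3G54400 and AT1G19600 at ZT0, and AT1G62510, AT1G22750 and AT4G12980 at ZT4. Days 9 and 10 peaked at different times for AT3G54400 in mesophyll of both day lengths and short day vasculature. They also did so for SIS in whole leaf of both day lengths and long day mesophyll, and for AT1G19600 in every short day group. The same held for AT4G33420 in long day whole leaf and AT1G22750 in short day mesophyll. AT1G26790 was high at ZT0 alone, with 9.18 and 6.88 at ZT0 in long day whole leaf and no value above 2.43 at any other time of that group. By group, members highest at ZT0 or ZT4 numbered 31 in long day whole leaf, 34 in long day mesophyll, 22 in long day vasculature, and 35, 36 and 30 in the same tissues of short days. DJ1F was the only member that was highest at neither time in any group. AT4G27450, AKINBETA1 and AT5G14120 had their maximum at ZT12 in 2 or more short day groups. AT5G14120 stood there at 8.82 and 9.05 in whole leaf, 8.89 and 9.01 in mesophyll, and 4.78 and 5.52 in vasculature.

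**Figure D3:**
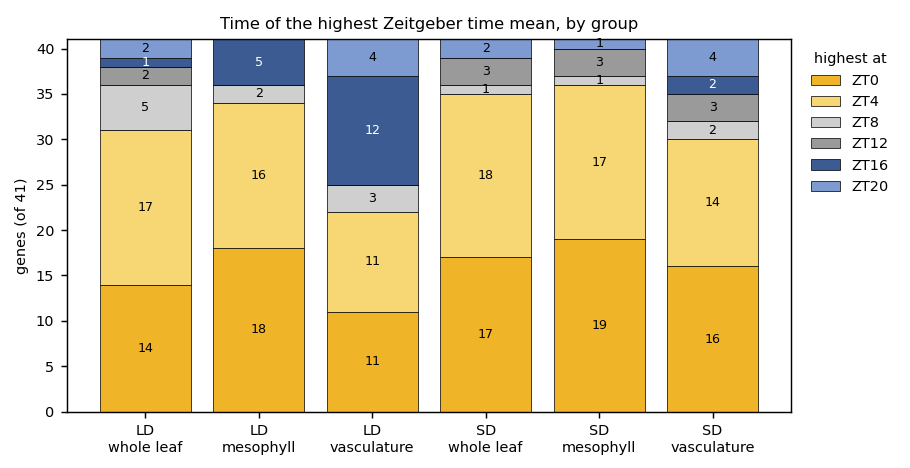
Bars count the 41 genes by the Zeitgeber time of their highest time mean, for each of 6 groups, with the numbers written in the bars. In long day vasculature 22 genes were highest at ZT0 or ZT4 and 16 at ZT16 or ZT20, while in the other groups at least 30 were highest at ZT0 or ZT4.

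Long day vasculature differed most from this label. Groups with smaller ranges weigh less in the average profile that set the label. The median range was smallest here, 2.18, beside 2.36 in short day vasculature, and its part in the peak times was not tested. Peak times of other probe sets were not counted, so no trait particular to the members is read from these peak times. In long day vasculature 12 members were highest at ZT16, the time of lights off, and 4 at ZT20. In 12 of these 16 the maximum in long day whole leaf and mesophyll was at ZT0 or ZT4. AT1G55960 was the clearest case, with 10.63 and 10.41 at ZT16 in long day vasculature against 5.43 and 4.39 in long day mesophyll, and with 8.4 and 7.66 at ZT0 against 11.14 and 11.25. The evening high of this gene was present on both days. Without the array of ZT20 of day 9, the members highest at ZT16 or ZT20 numbered 13, because AT5G48490, AT5G65380, AT1G68440 and AT1G33110 moved to ZT4 or ZT0 and AT2G26690 moved to ZT20. Without that array the ranges of AT1G33110 and AT4G12980 in long day vasculature were under 1.5, and without that of ZT8 of day 9 the range of AT4G21740 was. Without the array of ZT0 of day 10 in long day whole leaf, AT1G19600 had a range under 1.5 there and 5 members moved their maximum to ZT0.

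A separate rise at ZT16, by more than 0.5 over both ZT12 and ZT20 on both days, was seen in 3 members in long day whole leaf, 6 in long day mesophyll and 8 in long day vasculature. No member showed it in any short day group. Among all 12140 kept probe sets of 1 gene the shares were 0.791%, 0.667% and 0.898% in the long day groups and 0.0412% to 0.0659% in the short day groups. The members were chosen for large ranges and can rise by 0.5 more easily than most probe sets. Nothing is therefore read from their larger shares in long days. AT2G40460 and RXW8 had the rise in all 3 long day tissues. AT2G40460 went from 5.10 and 4.68 at ZT12 to 6.45 and 6.23 at ZT16 in long day vasculature, and back to 4.51 and 4.67 at ZT20. AT2G44670 had it in mesophyll, with 9.28 and 8.86 at ZT16, and in vasculature, with 8.76 and 9.2.

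For most profiles the courses of both days were alike. The rule favours this, because it asked for a range of at least 1.5 in means over both days. The range exceeded the largest gap between days in 245 of 246 profiles, and the maximum fell at the same time on both days in 181. Over the 6 times, the correlation of day 9 with day 10 had a median of 0.960 and was over 0.8 in 226 profiles. It was lowest, 0.213, for AT3G54400 in long day mesophyll. The days share tissue, day length and time, and these values are a description. Long day vasculature repeated least, with a median correlation of 0.898. Its largest gap, 4.79, was that of AT5G48490 at ZT20.

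Whether the members had different mean levels in vasculature and mesophyll was asked over the 6 times, a quantity the rule did not use. The widest separation was that of AT5G15950, whose mean level was 9.79 in vasculature and 3.31 in mesophyll in long days (limma adjusted p = 1.31e-17 for a difference of 6.48 with SE 0.12, or 89.4-fold, from 12 arrays of each tissue). The short day means were 8.97 and 3.68. The lowest of its 24 vasculature arrays, 5.87 at ZT12 in short days, lay below its highest mesophyll array, 6.16 at ZT0 in short days, and the other 23 vasculature arrays lay above all mesophyll arrays. AT4G33420 was higher in vasculature in both day lengths, by 5.35 in long (SE 0.11, limma adjusted p = 5.36e-17) and 4.97 in short days (SE 0.11, limma adjusted p = 1.24e-15), and all of its 24 vasculature arrays, from 6.48, lay above its mesophyll arrays, which reached 5.28. AT5G14940 was higher by 4.53 (SE 0.17, limma adjusted p = 1.05e-13) and 5.26 (SE 0.14, limma adjusted p = 8.54e-15).

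At the other end, AT5G65380 had mean levels of 3.87 in vasculature and 9.17 in mesophyll in long days (difference -5.30, SE 0.30, limma adjusted p = 3.28e-11) and 3.83 and 8.81 in short days (difference -4.98, SE 0.16, limma adjusted p = 8.37e-14). Its vasculature arrays lay between 1.95 and 5.81 apart from 7.55 at ZT20 of day 9 in long days, and its mesophyll arrays between 6.07 and 10.53. AT5G16030 was lower in vasculature by 3.96 and 3.06, AT5G48490 by 3.33 and 3.08, and AT5G14120 by 3.11 and 3.24 in long and short days (limma adjusted p at most 3.3e-07). Among the members with a name, ACT11 was higher in vasculature by 2.45 and 1.44 and DJ1F by 1.31 and 2.04. RXW8 was lower by 1.54 and 1.28. SIS was lower by 1.61 in long days, and its difference of -0.88 in short days did not reach the size of 1 that a call required. LHB1B2 was lower by 1.03 in short days and had -0.77 in long days, and AKINBETA1 had -0.70 and -0.32, neither a call.

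Differences were called at a size of 1 or more on the log2 scale together with a p under 0.05 after Benjamini-Hochberg adjustment across the 21827 probe sets that were kept. In long days 27 members were called, against 25.5% of all probe sets; 13 were higher in vasculature (12.7% of all) and 14 lower (12.8% of all). In short days 30 were called (25.1% of all), 16 higher (12.4% of all) and 14 lower (12.6% of all). The median difference over the members was -0.08 in long and 0.04 in short days, beside -0.01 and 0.00 over all probe sets. The members were chosen for large ranges and are no random sample of probe sets, so nothing is read from their larger share of calls. The calls did not lean to either tissue: 24 members were called in both day lengths, 11 of them higher and 13 lower in vasculature in both. Long and short days have no arrays in common in these comparisons.

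**Figure D4:**
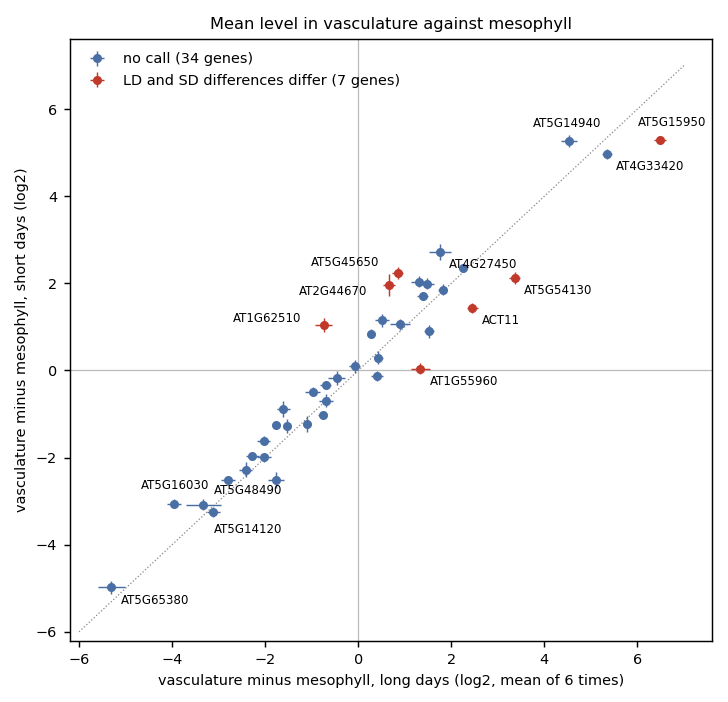
Each point is 1 of the 41 genes, with its mean difference of vasculature minus mesophyll on the log2 scale in long days (x axis) and in short days (y axis); bars are standard errors, and the dotted line marks equal differences. Most genes lie near the line, from AT5G65380 at -5.30 and -4.98 to AT5G15950 at 6.48 and 5.29, and the 7 genes in red had differences that were called unlike between the day lengths.

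The difference between vasculature and mesophyll was itself unlike in long and short days for 7 members, by limma's test of the interaction over 48 arrays with the same call (2.28% of all probe sets). AT1G62510 had a difference of -0.74 in long days, which was no call, and was higher in vasculature by 1.04 in short days. Its vasculature mean was 4.74 in long days and 7.03 in short days, whereas its mesophyll means, 5.48 and 5.99, were close. AT1G55960 was higher in vasculature by 1.34 in long days, against a difference of 0.04 (no call) under short days. AT5G54130 (3.36 and 2.13), AT5G15950 (6.48 and 5.29) and ACT11 (2.45 and 1.44) had the larger difference in long days, and AT5G45650 (0.85 and 2.23) and AT2G44670 (0.67 and 1.97) in short days.

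The shape of the day was compared between vasculature and mesophyll after each gene's mean was taken off in each tissue. A profile was called different when limma's moderated F test of the tissue by time interaction had an adjusted p under 0.05 and the largest departure between the centred profiles was at least 1. In long days 19 members were called (7.37% of all) and in short days 16 (4.7% of all), with 13 in both. A gene with a large range can depart by 1 more easily than most, so these shares are not compared further. The largest departure in long days was that of AT1G55960, 5.23 at ZT12 (limma adjusted p = 2.9e-07), when its level was 10.08 and 9.55 in vasculature and 3.12 and 3.36 in mesophyll. AT5G35970 departed by 4.44 at ZT12 (limma adjusted p = 3.58e-06), with 7.05 and 6.28 in vasculature and 3.74 and 4.26 in mesophyll, while at ZT0 and ZT4 all mesophyll arrays lay above all vasculature arrays. AT5G54130 departed by 2.97 at ZT12 (limma adjusted p = 1.15e-06), with 8.13 and 7.70 against 1.64 and 1.52.

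In short days the same AT1G55960 led, with 3.46 at ZT4 (limma adjusted p = 6.23e-07), where mesophyll had 9.87 and 10.48 and vasculature 6.31 and 7.20. AT5G35970 departed by 2.82 at ZT16 (limma adjusted p = 0.00209) and AT1G62510 by 2.24 at ZT4 (limma adjusted p = 0.00275). ACT11 and LHB1B2 were called in both day lengths and RXW8 in long days alone, with departures of 1.07 to 1.51. AKINBETA1, SIS, DJ1F and AT2G26690 were called in neither, and whether their profiles are alike in the tissues is not shown by that.

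Mean levels in long and short days were called different for 7 members in whole leaf (1.86% of all), 4 in mesophyll (1.22% of all) and 5 in vasculature (1.48% of all). The members are no random sample of probe sets, so nothing is read from their larger share of calls. AT5G54130 was higher in long days by 2.11 in whole leaf (means 5.96 and 3.84, SE 0.09, limma adjusted p = 3.21e-10) and by 2.18 in vasculature (7.26 and 5.09, SE 0.13, limma adjusted p = 2.86e-08). In mesophyll it differed by 0.94, under the size of a call. DJ1F was higher in long days by 1.90 in whole leaf (SE 0.11, limma adjusted p = 8.68e-09) and by 1.11 in mesophyll (SE 0.14, limma adjusted p = 6.98e-05). RXW8 was higher by 1.26 in whole leaf and by 1.16 in mesophyll, AT1G73600 by 1.79 in whole leaf, and AT2G44670 by 1.33 in mesophyll. AT1G55960 and AT5G35970 were higher in long day vasculature by 1.70 and 1.5.

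Lower means in long days were called for AT5G48490 and AT3G54400 in whole leaf (-1.63 and -1.23), for AT1G19600 in mesophyll (-1.11), and for AT1G62510 and AT4G27450 in vasculature (-2.29 and -1.53). AT1G62510 in vasculature had 12 long day arrays between 3.72 and 6.81 and 12 short day arrays between 5.75 and 8.60, which overlapped. With 1 day alone these counts were smaller, 3 in whole leaf with either day, 1 and 0 in mesophyll and 2 in vasculature. Those fits had fewer arrays, 1 for each group and time, and took group and time as separate terms. Differences that change over the day then add to the spread, so these counts are not like for like with those of both days. The median difference of the members was 0.24 in whole leaf, 0.35 in mesophyll and 0.12 in vasculature, beside 0.02, 0.01 and 0.01 over all probe sets.

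At single times the number of members called ranged from 2 to 25. It was highest in each tissue at ZT16, when the lights go off in long days and short days are dark. Next highest was ZT12, when long days are light and short days dark. The shares over all probe sets, given below for each time, had these same 2 times first and next in each tissue. These comparisons rest on 2 arrays for each group and time, with the spread pooled over all times of both groups. Where 1 array is left out, 1 remains for its group at that time, so calls without it are a weak check. Members with large ranges can again reach a difference of 1 more easily than other probe sets. At ZT0, when the lights come on in both, 11 members were called in whole leaf (3.61% of all), 2 in mesophyll (0.825% of all) and 6 in vasculature (1.72% of all). AT5G54130 was higher in long days in all 3 tissues, with 8.85 and 9.30 against 6.14 and 5.97 in whole leaf (difference 3.02, limma adjusted p = 8.56e-07). AT2G41250 and AT5G14940 followed in whole leaf with 1.16 and 1.26, and AT1G26790 in mesophyll with 2.54; the difference of AT5G14940 was 0.49 and no call without the array of day 10. AT1G73480 was lower in long days by 2.96 in whole leaf (limma adjusted p = 0.000123) and by 2.91 in vasculature (limma adjusted p = 6.68e-05), AT5G48490 by 2.96 in whole leaf, and AT1G62510 by 3.54 in vasculature. Without the array of day 10, which leaves 1 long day array at ZT0, the difference of AT5G48490 in whole leaf was -1.24. LHB1B2 and SIS had differences of -1.39 and -1.11 in whole leaf with all arrays, but of -0.85 and -0.47 without the array of day 10, and neither was then a call (limma adjusted p = 0.191 and 0.418). Of the 11 calls in whole leaf at ZT0, 5 remained without that array, among them AT5G54130, AT2G41250, AT1G73480 and AT5G48490, and 4 other members were called.

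At ZT4, 4 hours into the light of both, 11 members were called in whole leaf (2.9% of all), 6 in mesophyll (1.02% of all) and 7 in vasculature (1.34% of all). AT4G27450 (4.16, 3.35 and 1.97), AT4G15430 (3.85, 2.48 and 1.39) and AKINBETA1 (2.15, 2.48 and 1.77) were higher in long days in whole leaf, mesophyll and vasculature, in that order. AKINBETA1 stood at 6.95 and 6.55 in long day whole leaf and at 3.84 and 5.36 in short days, and at 7.0 and 7.39 against 4.53 and 4.88 in mesophyll, with no overlap in either. SIS was higher in long days by 1.70 in whole leaf and 2.08 in mesophyll. The lower members at this time were AT3G54400 in whole leaf (-1.93), ACT11 in mesophyll (-1.25), and AT1G62510 and AT5G40500 in vasculature (-2.32 and -1.19).

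At ZT8, when the lights go off in short days, 16 members were called in whole leaf (4.82% of all), 9 in mesophyll (2.96% of all) and 9 in vasculature (2.29% of all). Without the array of ZT8 of day 9 in long day vasculature the last count was 2. AT4G27450 (4.74), AT1G55960 (2.81) and AKINBETA1 (2.68) were highest above short days in whole leaf, and AT4G27450 (2.45), AT1G55960 (2.40) and AKINBETA1 (2.37) also in mesophyll. In vasculature AT4G27450 (1.84), AT1G73480 (1.64) and AT5G54130 (1.51) led, and none of these 3 was called without that array (2.09, 1.31 and 0.96). AT3G54400 was lower in long days in whole leaf and vasculature, by 1.22 and 1.63. AT5G12110 was lower by 1.1 in whole leaf, and DJ1F and AT1G62510 by 1.48 and 1.38 in vasculature. Of these, AT3G54400 and DJ1F were not called in vasculature without that array.

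At ZT12, when only long days are light, 19 members were called in whole leaf (6.37% of all), 17 in mesophyll (6.08% of all) and 18 in vasculature (4.54% of all). AT4G27450, AKINBETA1 and AT5G14120 were lower in long days in every tissue. AT4G27450 differed by -3.94, -4.14 and -4.80, AKINBETA1 by -3.49, -3.67 and -3.46, and AT5G14120 by -2.44, -2.69 and -2.07 in whole leaf, mesophyll and vasculature. RXW8 was higher in long days by 3.61, 3.02 and 2.35. AT1G73600 was higher by 4.91 in whole leaf (6.88 and 6.80 against 2.05 and 1.82, limma adjusted p = 1.22e-09) and by 2.41 in mesophyll. AT2G44670 was highest above short days in mesophyll (4.74), and AT1G55960, AT5G15950 and AT5G35970 were so in vasculature (4.23, 3.97 and 3.74). DJ1F was higher in long days by 3.63, 1.98 and 1.88 in the 3 tissues.

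The calls were most numerous at ZT16, when the lights go off in long days, with 25 members in whole leaf (8.75% of all), 24 in mesophyll (6.6% of all) and 23 in vasculature (6.08% of all). In whole leaf 16 were higher in long days (4.28% of all) and 9 lower (4.47% of all), in mesophyll 16 (2.82% of all) and 8 (3.78% of all), and in vasculature 12 (3.01% of all) and 11 (3.07% of all). AT5G35970 was higher by 2.98 in whole leaf, by 4.0 in mesophyll (7.6 and 7.37 against 3.62 and 3.35, limma adjusted p = 2.86e-05) and by 4.17 in vasculature (8.02 and 7.90 against 3.78 on both days, limma adjusted p = 1.31e-05). AT3G56290 (3.40, 3.81 and 2.12) and RXW8 (3.17, 1.88 and 2.61) were also higher in long days in the 3 tissues. AT1G73600 led in whole leaf with 4.0, AT2G44670 was among the 3 highest in mesophyll with 3.57, and AT1G55960 and ACT11 were among the 3 highest in vasculature with 4.2 and 2.65.

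AKINBETA1 was lower in long days at ZT16 by 3.12, 3.55 and 3.67 in whole leaf, mesophyll and vasculature (limma adjusted p at most 5.95e-05). In mesophyll the long day arrays stood at 4.44 and 4.48, below the short day arrays at 7.73 and 8.29. AT4G27450 was lower by 3.67, 2.76 and 4.39 in the same order. SIS was also among the 3 lowest in whole leaf, with 4.82 and 5.18 against 7.87 and 7.76 (difference -2.82), as were AT5G14120 in mesophyll (-2.32) and AT1G62510 in vasculature (-2.18). LHB1B2 was lower in long days by 1.43 in whole leaf and 1.15 in mesophyll.

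At ZT20, when both are dark, the calls numbered 14 in whole leaf (2.69% of all), 6 in mesophyll (0.646% of all) and 7 in vasculature (1.35% of all). The median difference of all 41 was -0.42, -0.18 and -0.33 in the 3 tissues, beside 0.02, 0.00 and 0.00 over all probe sets. AT5G48490 was lower by 4.55 in whole leaf, with 4.55 and 4.01 against 8.83 and 8.82. AT4G12980 (-2.63) and AT5G16030 (-2.16) followed there. AT1G55960 (-2.24), AT2G41250 (-2.01) and AT5G15950 (-1.62) were the lowest in mesophyll, and AT2G41250 (-2.68), AT1G62510 (-2.33) and AT4G27450 (-2.09) in vasculature; the last was no call without the array of ZT20 of day 9 (-1.96, limma adjusted p = 0.13). Higher levels in long days were called for AT5G54130 in whole leaf and vasculature (1.66 and 2.17) and for DJ1F and AT1G73600 in whole leaf (2.11 and 1.15).

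**Figure D5:**
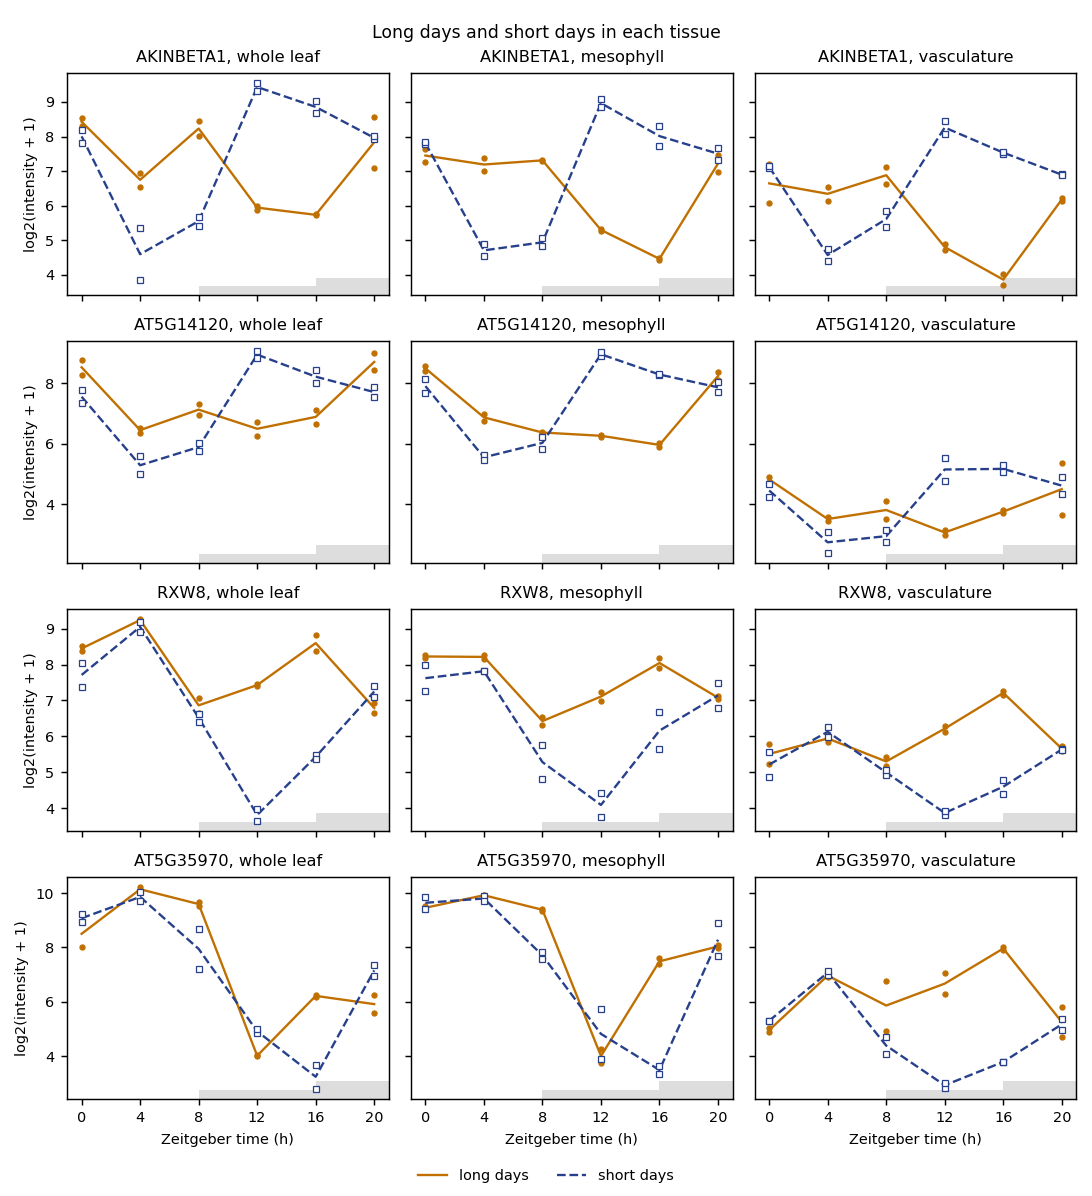
Levels as log2(intensity + 1) of 4 genes (rows) in 3 tissues (columns) over Zeitgeber time in hours; points are single arrays of days 9 and 10, lines join their means, and the grey strips at the foot mark the dark of short days (lower) and of long days (upper). AKINBETA1 and AT5G14120 are high at ZT12 in short days, and RXW8 and AT5G35970 in vasculature are high at ZT16 in long days.

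Compared over the whole day, 29 members had a different profile in long and short days in whole leaf (7.33% of all), 25 in mesophyll (5.53% of all) and 23 in vasculature (3.82% of all). Genes with large ranges depart by 1 more easily than most, so nothing is read from the larger share of calls among the members. Of the 41, 16 were called in all 3 tissues, 11 in 2 and 7 in 1, a tally not made over all probe sets. The 7 called in none were AT1G22750, AT1G68440, AT2G26690, AT3G54400, AT4G21740, AT4G26860 and AT5G14940. Of these, AT1G68440 was called in whole leaf without ZT0 of day 10 (1.68) and AT1G22750 in vasculature without ZT20 of day 9 (1.03). AT4G27450 had the largest departure in each tissue, 4.5 at ZT8 in whole leaf (limma adjusted p = 6.19e-06), 3.91 at ZT4 in mesophyll (limma adjusted p = 0.000129) and 3.5 at ZT4 in vasculature (limma adjusted p = 1.96e-05). AT5G48490 (3.43 at ZT8) and AT4G15430 (3.41 at ZT4) followed in whole leaf, AT2G44670 (3.41 at ZT12) and AT5G35970 (3.24 at ZT16) in mesophyll, and AT5G15950 (3.15 at ZT12) and AKINBETA1 (2.79 at ZT16) in vasculature. The 3 tissues have no arrays in common, but each of these profile tests shares its arrays with the tests of the mean and of single times above.

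Other genes of the 2 pathways that hold a named member were taken from lists made for earlier work on these data. Of 3 measured members of the carbon starvation list, AKINBETA1, the autophagy gene ATG8E and AT1G70000, 2 were lower in long days and none higher at ZT12 and at ZT16 in each of the 3 tissues, namely AKINBETA1 and ATG8E. At ZT4 only AKINBETA1 was called, and higher in long days, in each tissue. The median difference of the 3 at ZT12 was -1.57, -1.1 and -1.27 in whole leaf, mesophyll and vasculature. Of 3 measured light-harvesting genes, LHB1B2, LHCB4.1 and LHCB4.2, all 3 were called lower in long day whole leaf at ZT0 with all arrays, with a median of -1.39. The array of ZT0 of day 10 has the low mesophyll marker sum of 9.63, and LHCB4.1 is itself one of those markers. Without this array only LHCB4.2 was called (-1.12, limma adjusted p = 0.0268), and LHB1B2 and LHCB4.1 had -0.85 and -0.36. At ZT20, LHB1B2 and LHCB4.2 were called lower in long day whole leaf, by 1.98 and 1.26. None of the 3 was called in whole leaf at ZT4, ZT8 or ZT12. At ZT0 none of the 3 was called in mesophyll or vasculature. In mesophyll LHB1B2 was called lower in long days at ZT16 and ZT20, and LHCB4.2 higher at ZT12. In vasculature the only call was LHCB4.2, higher in long days at ZT8, where the array of day 9 stood apart. No member was in the clock list, of which 11 probe sets were measured. These stood for GI, AT1G69570, FIO1, XCT, TIC, AT4G01280, AT4G33980, LIP1, COR27 and AT5G52660. Clock genes outside this list were not looked at, so their absence from the members is not shown. GI, a clock component, had a range of at least 6.52 in every group and was highest at ZT8 in all 6.

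The members did not follow a single course. Over the 36 group and time means, each centred within its group, the 820 pairs had a median Pearson correlation of 0.322, and 229 were below 0; the points share arrays and normalization, and no p is given. AT1G58235 and AT1G19600 were most alike (0.925), followed by AT1G22750 and AT4G12980 (0.913) and by AT4G15430 and AT1G68440 (0.909). AKINBETA1 was most like AT5G14120 (0.867) and least like DJ1F (-0.895). AT5G48490 had the highest median correlation with the others, 0.593, and AT5G14120 the lowest, -0.141. By the gene order of RefSeq assembly TAIR10.1, the closest members were ACT11 and AT3G12150, with 5 genes between them, and their correlation was -0.044.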

How the data were processed

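RNA from whole cotyledons, mesophyll and vasculature was measured on 72 Affymetrix Gene 1.0 ST arrays, 1 for each tissue, day length, Zeitgeber time and day. The authors deposited 1 intensity for each probe set and array, between 0.835 and 18024.4 and thus not on a log scale. The submitters' processing notes name GCRMA, whose version is not given in the sources used here. Background correction of this kind can leave dim probe sets near a common floor, where differences are narrowed.

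Arrays were grouped by their titles. Of 28583 probe sets, GEO's platform annotation gave 1 gene for 16722 and several for 759, and did not list 11102; 16574 of those with 1 gene were found in RefSeq, used for names and gene order. Values were taken as log2(intensity + 1). For tests, 21827 probe sets were kept that exceeded an intensity of 2.773, the 40th percentile, in at least 6 arrays. limma 3.58.1 in R 4.3.3 was fitted to the 24 arrays of the groups compared, with 1 term for each group and time, and p-values were adjusted over all kept probe sets. The fit was tested on simulated data. The block by day and the other alternatives are given in the closing section.

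The members and lists were chosen with earlier results of these data known. The tests at ZT8, ZT12 and ZT16 and the test of the tissue difference between day lengths were added after seeing the data. Genes named in a comparison were the 3 highest and 3 lowest members past the call (for profiles, the 3 largest departures); the 6 with the largest smallest range, those at the threshold and the 7 with a name were described too, and other genes named as examples were chosen after their values were seen.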

Additional observations from a re-analysis of the deposited data

Results flagged for a closer look

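The difference between vasculature and mesophyll was unlike in long and short days, by limma's test of the interaction with p-values adjusted over all kept probe sets, for 7 of the 41 genes. The share of all probe sets called by this test is given with it in the results above. As the 41 were chosen for large ranges and are no random sample, nothing is read from the size of this count. The long day difference less the short day difference was -1.78 for AT1G62510 (SE 0.26, adjusted p = 1.53e-05), -1.38 for AT5G45650 (adjusted p = 3.48e-06) and -1.31 for AT2G44670 (adjusted p = 0.00255). It was 1.296 for AT1G55960 (adjusted p = 0.000653), 1.24 for AT5G54130 (adjusted p = 2.1e-05), 1.19 for AT5G15950 (adjusted p = 5.16e-06) and 1.02 for ACT11 (adjusted p = 8.99e-05). These tests share their arrays with the comparisons of tissues and of day lengths.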

How the results depend on the processing

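Of 175 counts recomputed under an alternative, 165 stayed within 1.5 times their main value. Of 752 recomputed results of named genes, 714 kept their call and 38 did not pass it. Among differences of means and at single times, 0 reversed their direction. Profile differences were compared by size alone, so a departure that turned could not count as reversed. The number of members was 26 with a pseudocount of 4, 85 with a range of at least 1.2 and 14 with a range of at least 2. It was 43 without day 10 (33 shared) and 51 without day 9 (32 shared). The members with a different mean in long and short days numbered 3 and 3 in whole leaf, 1 and 0 in mesophyll and 2 and 2 in vasculature when day 10 or day 9 was left out. The fits to 1 day took group and time as separate terms, unlike the main fit, so these counts are not like for like. Leaving out single arrays gave 8 in whole leaf without ZT0 of day 10 and 6 in vasculature without ZT8 of day 9. At ZT8 in vasculature the count of 9 became 2 without ZT8 of day 9 and 10 without ZT20 of day 9. The array alternatives in vasculature, and those for the gene lists, were chosen after seeing the data. At the time of an array left out, its group had 1 array, on which the calls at that time then rest. Without ZT0 of day 10, 9 members were called at ZT0 in whole leaf, 5 of them among the 11 called with it. With the replicate block by day, 27 and 30 members differed in mean between tissues, 19 and 18 in profile between tissues, 7, 4 and 5 in mean between day lengths, and 29, 17 and 22 in profile between day lengths. The numbers did not pair the samples: the correlation of same-day deviations lay between -0.224 and 0.078.

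Profile differences were compared between settings by size, a choice made after signed departures had been seen to turn in 4 cases, because the F test has no direction. The largest departure of AT5G54130 between tissues in long days went from 2.97 to -2.49 with a pseudocount of 4 and to -2.92 without ZT20 of day 9 in vasculature. In whole leaf without ZT0 of day 10, that of AT4G27450 between day lengths went from 4.5 to -4.36 and that of AT5G48490 from 3.43 to -3.21. The causes were not tested. Dim probe sets and 2 arrays for each group and time limit what can be seen.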
